A study of Mus musculus with 72 samples.

Results

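In mouse white adipose tissue, 60 rows of the count table were taken as the rows with the largest excess at zeitgeber time 0 (ZT0) over ZT12 in WT animals. Zeitgeber time counts hours from lights-on. Counts were divided by the library total and scaled to CPM, so that every library sums to the same total. A row was kept if it had a count in at least 60 of the 72 libraries, which left 6243 of the 24184 rows with any count (32377 rows in all). The 60 rows were chosen by measured values of WT alone, as those with the largest median log2(CPM + 10) over the 4 WT libraries of ZT0 minus that over the 4 of ZT12. Libraries of LRE and KO did not enter the choice, and their 6-time profiles are the main subject here. The rows carry no gene identifier, so a row is named here by its number in the table, the first row below the header being 1. Whether the rows hold genes with a known role in the clock or in fat, the level of Bmal1 and the markers of fat tissue are therefore not analysed here, and no sequence could be matched.

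RNA from tissue labelled eWAT was profiled in 3 genotypes at 6 times (0, 4, 8, 12, 16 and 20 h), with 4 libraries for each genotype and time. The genotypes were WT, a full-body Bmal1 knockout (KO) and LRE, which the labels do not spell out. By its title the series is about the clock of the liver and daily rhythms of white fat, whereas the design text names AML12, a mouse hepatocyte line. The sample labels were followed. The sources used here state no age, sex, strain, lighting or feeding, and nothing says whether the 4 libraries of a group came from separate animals. The p-values therefore measure the spread between these samples, which may be technical.

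Bmal1 encodes a transcription factor at the centre of the circadian clock. With its partner CLOCK it drives the genes of its own repressors, the period and cryptochrome proteins, and this feedback loop runs in nearly every tissue. In white fat, clock-controlled genes include many that act in lipid storage and release. Daily feeding, hormones and signals from other organs can also impose daily changes on a tissue, so that a tissue without its own clock can still differ between day and night.

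The libraries held between 5293 and 508821 counts. At the median total of 86032, a single count equals 11.6 CPM. In all, 7 libraries stood apart in composition or depth. They were the 4 WT libraries of ZT16, WT ZT12 replicate 2, WT ZT20 replicate 4 and KO ZT16 replicate 1. One of them, WT ZT12 replicate 2, was among the libraries that chose the rows. With it left out of the choice, 34 of the 60 rows were chosen again.

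The 60 rows were mostly sparse. Their median counts per library ran from 2 to 215.5, with a median of 4, against 5 for the other kept rows. Their mean level over all libraries had a median of 46.3 CPM (range 23.3 to 2939), against 55.6 CPM for the other kept rows. Only 7 averaged at least 100 CPM (rows 5412, 5475, 5734, 7513, 20224, 23508 and 30146), and 5 were counted in all 72 libraries. They were spread from row 2145 to row 31434, with 1 adjacent pair. Because most rows rest on a few counts, only 29 of the 60 passed the count filter of the main edgeR fit (3724 rows). The other rows were not tested in that fit, so its counts of rows passed are out of these 29 tested members. A row can pass that filter through the group where it is high, so the 29 are not read as a group. Statements about all 60 come from plain CPM or from a second edgeR fit over the 6243 kept rows.

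By the choice itself, the WT difference between ZT0 and ZT12 ran from 1.60 to 3.20 on the log2(CPM + 10) scale, with a median of 1.88. The last rows inside were 7332 and 14630, both at 1.60, and the first outside were 20123 and 13846, both at 1.59. Row 27515 headed the choice at 3.20. It stood at 96.5, 115, 153 and 197 CPM in the WT libraries of ZT0 and at 0, 0, 14.1 and 27.0 CPM at ZT12. Row 14170 followed at 2.85, with 30.6, 52.6, 73.6 and 98.5 CPM at ZT0 and a count in 1 of 4 libraries at ZT12 (28.3 CPM). These values and the WT profile at both times are descriptions of the rule, with no test.

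In WT the rows were set apart more by a low ZT12 than by a high ZT0. The median row lay 1.24 log2 units below its own WT mean at ZT12 (a deviation of -1.24) and 0.64 above it at ZT0. Deviations at the other times were 0.39 at ZT4, 0.19 at ZT8, -0.10 at ZT16 and 0.13 at ZT20. ZT12 was the lowest of the 6 times for 54 of the 60 rows and ZT16 for the other 6. ZT0 was the highest for 26 rows (43.3%, against 15.5% of all kept rows). ZT16 was the highest for 15 (25%, against 25.2%) and ZT20 for 10 (16.7%, against 12.2%). At ZT12 in WT, 115 of the 240 values of the 60 rows were 0 (47.9%), against 6.87% over all kept rows in the same libraries. In the remaining 68 libraries, 6.89% of the values of the 60 rows were 0, against 5.64% over all kept rows. Both figures of the 60 rows follow in part from the choice and from the keep rule, so they describe the rule. Of the 60 rows, 19 had a WT median of 0 at ZT12. Depth moved with this contrast. WT totals were 114043 to 261328 counts at ZT0 and 70689 to 74032 at ZT12, and its part in the choice was not tested.

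**Figure D1:**
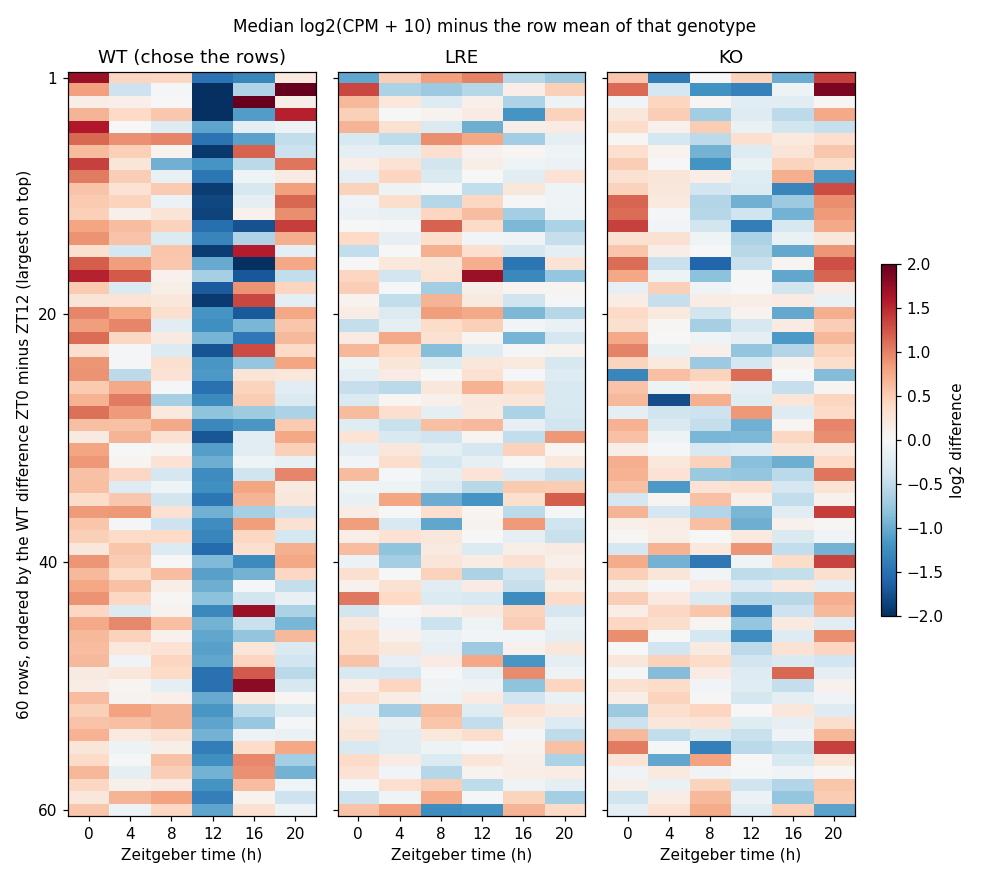
Median log2(CPM + 10) of the 4 libraries minus the row's mean over the 6 times of the same genotype (colour, log2 units), for the 60 rows (vertical, ordered by the WT difference that chose them) at each zeitgeber time (horizontal, h) in WT, LRE and KO. The blue WT column at ZT12 is the choice itself, and in KO most rows are above their mean at ZT0 and ZT20.

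In KO, which entered the keep rule but not the ranking, most of the rows were again higher at ZT0 than at ZT12. By median log2(CPM + 10), 49 of 60 were higher at ZT0 (81.7%), against 52.6% of all kept rows. The median difference was 0.62, against 0.05 over all kept rows. All 7 rows averaging at least 100 CPM had the same direction in KO, by 0.59 to 2.75. The ZT0 libraries lay wholly above those of ZT12 for 6 of the 60 rows, against 3.16% of all kept rows, and wholly below for 0 rows, against 1.39%. Totals were alike at both times, 46836 to 67459 counts at ZT0 and 35317 to 85798 at ZT12. In bulk tissue, fewer cells of a type and less RNA per cell cannot be told apart.

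Of the 29 tested members, 2 passed between ZT0 and ZT12 in KO, where 0.0806% of tested rows did (3 of 3724). All 3 were higher at ZT0. The test was the edgeR quasi-likelihood F-test, at a Benjamini-Hochberg adjusted p under 0.05. Row 20224, the most abundant of the 60, stood at 3359, 5533, 6522 and 8199 CPM in the KO libraries of ZT0. At ZT12 it stood at 559, 754, 1035 and 1274 CPM. The groups did not overlap, and the log2 fold change was 2.63 ± 0.57 (SE, adjusted p = 0.0298 by edgeR). Row 30146 stood at 882, 1424, 1438 and 2498 CPM at ZT0 in KO and at 256, 303, 311 and 470.4 CPM at ZT12. Its groups did not overlap either, and it was higher at ZT0 by 2.13 ± 0.46 on the log2 scale (SE, edgeR adjusted p = 0.0298). In the fit over all kept rows, the same 2 of the 60 passed, where 0.112% of rows passed, and 14 of 60 (23.3%) had an unadjusted p under 0.05, against 6.63% of all rows. The median log2 fold change of the 60 was 0.61 there, against -0.02 over all rows, and 48 were positive. Without the 7 libraries it was 0.66, against 0.03.

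Both calls were lost once replicate numbers entered the fit. Libraries of KO ZT0 and KO ZT12 with the same number deviated together, with all 4 correlations between 0.190 and 0.351. All 4 were over 0.1 in only 5 of 153 pairs of groups. The labels do not say that a number marks a shared animal, and whether the numbers pair the libraries was not tested. With the number as a replicate block for these 2 groups, 0 of the 60 rows passed, where 0.0269% of tested rows did (adjusted p = 0.0743 for both rows by edgeR). Row 20224 then had a log2 fold change of 2.64. With 1 block shared by all 18 groups, 0 passed as well, where 0.0269% did (0.0526 for both). Single libraries also ended the calls. Both were lost without KO ZT0 replicate 3 (adjusted p = 0.236 for row 20224 and 0.409 for row 30146 by edgeR) or replicate 4 (0.0515 for both). The same happened without KO ZT12 replicate 1 (0.0565 and 0.129), replicate 2 (0.23 for both) or replicate 3 (0.227 and 0.203). Without KO ZT12 replicate 4, row 20224 alone lost its call (0.0625). In each of these fits the log2 fold change stayed at 1.82 or more.

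**Figure D2:**
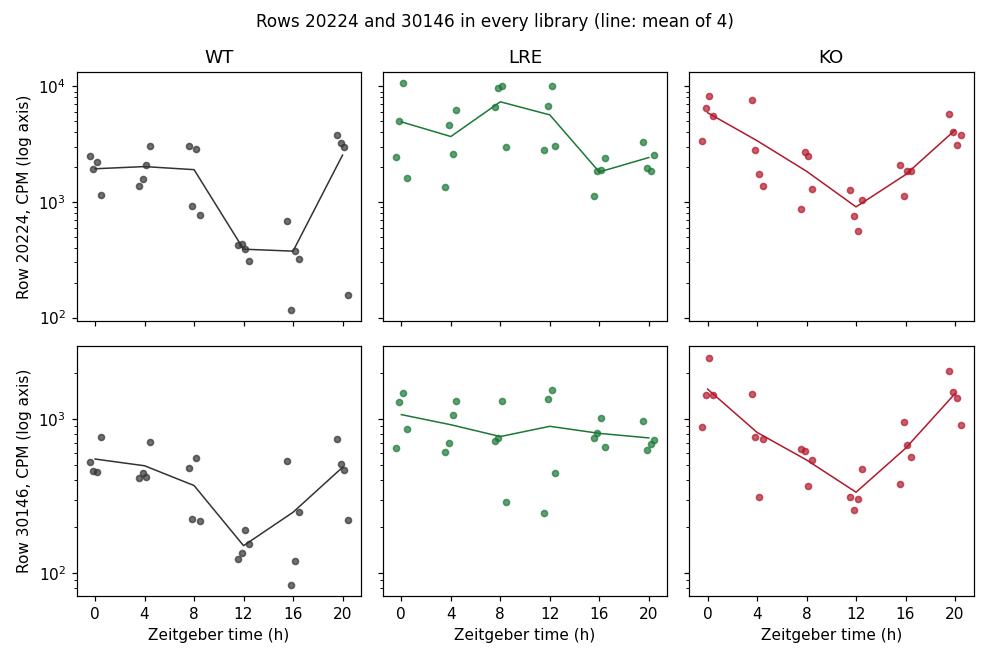
CPM (log axis) of row 20224 (top) and row 30146 (bottom) against zeitgeber time (h) in WT, LRE and KO, with 1 point per library and a line through the mean of 4. In KO both rows are lowest at ZT12 and high at ZT0 and ZT20, while the LRE libraries of ZT0 and ZT12 overlap.

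In LRE the 60 rows were split between higher and lower at ZT0 about as the whole table was. By median log2(CPM + 10), 33 of 60 were higher at ZT0 (55%), against 55.2% of all kept rows, and the median difference was 0.11, against 0.10. Of the 7 rows averaging at least 100 CPM, 2 were higher at ZT0, with differences from -0.96 to 0.46. The ZT0 libraries lay wholly above those of ZT12 for 0 of the 60 rows, against 4.5% of all kept rows, and wholly below for 1, against 2.53%. That row was 27515, which headed the WT choice. In LRE it had 0, 0, 20.4 and 25.4 CPM at ZT0 and 47.2, 51.1, 73.7 and 109.7 CPM at ZT12, the opposite order to WT. Its log2 fold change of -2.37 ± 0.83 (SE) missed the threshold (adjusted p = 0.0901 by edgeR), and it was picked for mention once its values were known.

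In LRE 3.14% of the 3724 tested rows passed this test (2.74% higher and 0.403% lower at ZT0). Row 14170 alone of the 29 tested members passed it. It stood at 12.7, 35.8, 523 and 672 CPM at ZT0 in LRE and at 0, 23.6, 42.2 and 49.1 CPM at ZT12. A pair of the ZT0 libraries was high and the other two lay within the ZT12 range. The log2 fold change was 3.20 ± 0.91 (SE, adjusted p = 0.0396 by edgeR). The call was lost with limma-voom (0.307), on thinned counts (0.0696) and in the fit over all kept rows (0.0527), where 0.721% of rows passed. It was also lost without WT ZT8 replicate 1 (0.0503), LRE ZT0 replicate 2 (0.0735) or 3 (0.116), or any one of LRE ZT12 replicates 1 to 4 (0.13, 0.108, 0.0982 and 0.0958). In KO this row stood at 61.9, 104, 208 and 299 CPM at ZT0 and at 0, 11.7, 26.9 and 28.3 CPM at ZT12. Although the KO groups did not overlap, the log2 fold change of 3.25 ± 1.14 (SE) did not pass (adjusted p = 0.468 by edgeR).

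The difference between the genotypes was tested directly as the LRE minus KO contrast of ZT0 minus ZT12. Of the 29 tested members, 0 passed by edgeR, where 0.779% of tested rows passed. In the fit over all kept rows, 8 of 60 had an unadjusted p under 0.05 (13.3%, against 10.9% of all rows). Under the count filter limma-voom called 0 and DESeq2 called 2. The row with the smallest p was 20224, with a log2 difference of -2.82 ± 0.78 (SE), which missed the threshold (adjusted p = 0.0566 by edgeR). In LRE this row stood at 1599, 2426, 5034 and 10619.5 CPM at ZT0 and at 2785, 3045, 6795 and 9992 CPM at ZT12, so that the groups overlapped almost fully. Row 30146 stood at 648, 858, 1293 and 1468 CPM at ZT0 in LRE and at 245, 448, 1345 and 1547 CPM at ZT12, with a log2 difference of -1.89 ± 0.63 (SE, adjusted p = 0.129 by edgeR). Over the 60 rows the median LRE minus KO difference was -0.60, against 0.12 over all kept rows.

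The call of row 20224 in this contrast lay at the threshold. It passed with RLE scaling (0.048), with DESeq2 (0.00425), with no count filter (0.0455) and without the 7 libraries (0.0253). Leaving out 1 library also let it pass for LRE ZT0 replicate 3 (0.0124), WT ZT20 replicate 4 (0.0326), KO ZT0 replicate 1 (0.0339) and KO ZT4 replicate 1 (0.0437). The same held for LRE ZT4 replicate 1 (0.0456), LRE ZT4 replicate 4 (0.0494) and LRE ZT8 replicate 4 (0.0494). Without LRE ZT0 replicate 3, 3 of the 60 rows passed.

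**Figure D3:**
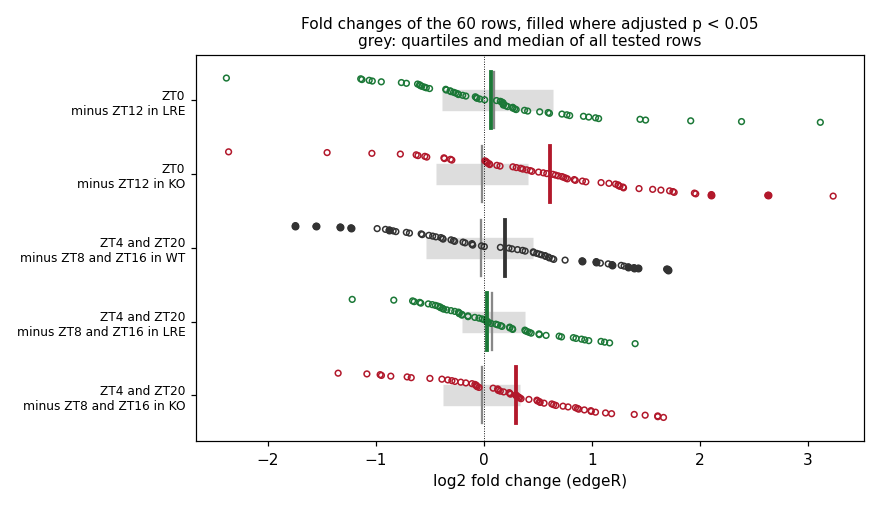
Log2 fold changes of the 60 rows (points, filled where the adjusted p was under 0.05) in the edgeR fit over the 6243 kept rows, for ZT0 minus ZT12 in LRE and KO and for the mean of ZT4 and ZT20 minus that of ZT8 and ZT16 in each genotype; coloured bars mark the median of the 60 rows, and grey boxes and lines the quartiles and median of all rows. The KO median for ZT0 minus ZT12 is 0.61 and the LRE median 0.06.

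As a share of each library's counts, the 60 rows showed the same shapes. In WT they held 0.632% ± 0.107 of counts at ZT0 (SD, n = 4) and 0.152% ± 0.016 at ZT12. That fall in WT follows from the choice, which used the same libraries. In KO they held 0.830%, 1.16%, 1.28% and 1.69% of counts at ZT0, 0.389%, 0.405%, 0.423% and 0.445% at ZT12, and 0.904% to 1.38% at ZT20. The lowest KO library of ZT0 was above the highest of ZT12. In LRE the share was 0.545% to 1.95% at ZT0 and 0.767% to 1.68% at ZT12, with overlapping groups. Row 20224 made up much of this share. Without it, the other 59 rows held 0.651% ± 0.160 at ZT0 in KO (SD, n = 4), 0.325% ± 0.020 at ZT12 and 0.692% ± 0.119 at ZT20. In LRE the 59 rows held 0.578% ± 0.243 at ZT0 and 0.572% ± 0.102 at ZT12.

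**Figure D4:**
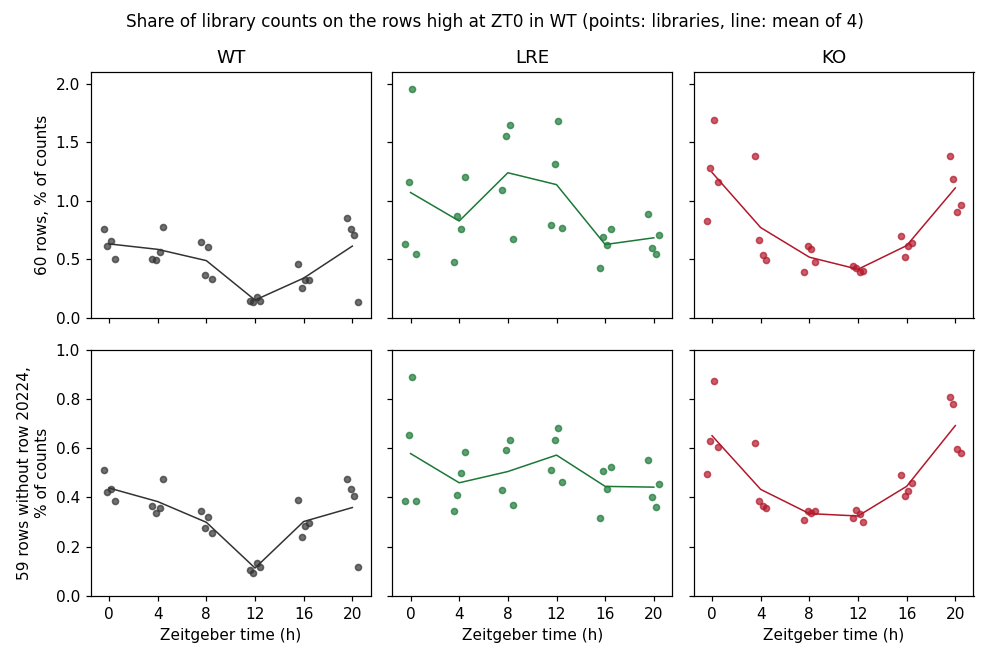
Percent of each library's counts on the 60 rows (top) and on the 59 rows without row 20224 (bottom) against zeitgeber time (h), with 1 point per library and a line through the mean of 4. KO falls from 1.24% at ZT0 to 0.415% at ZT12 and is back at 1.11% at ZT20, while the LRE libraries overlap across times.

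Over the whole day, the KO profile of the rows was high at ZT20 and ZT0. The median deviation of a row from its own KO mean was largest at ZT20 (0.39) and ZT0 (0.35), near 0 at ZT4 (0.06) and ZT8 (-0.06), and lowest at ZT12 (-0.25) and ZT16 (-0.26). ZT20 was the highest time in KO for 23 of 60 rows (38.3%, against 22.8% of all kept rows) and ZT0 for 14 (23.3%, against 16.8%). In LRE the deviations lay between -0.10 at ZT20 and 0.13 at ZT0. ZT0 was the highest time in LRE for 17 rows (28.3%, against 16.3% of all kept rows).

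A 24 h rhythm was tested with a cosine curve for each genotype. In KO 6 of the 29 tested members were rhythmic, where 1.48% of tested rows were (edgeR F-test of both rhythm terms, adjusted p under 0.05). Amplitude is how far the fitted curve rises above its mean. Row 30146 had an amplitude of 1.01 log2 units and a peak at 22.9 h (adjusted p = 0.00173 by edgeR). At ZT20 in KO it stood at 919.9, 1360.2, 1502 and 2056 CPM, near its ZT0 values. Row 2145 had an amplitude of 1.44 and a peak at 21.6 h (adjusted p = 0.0057 by edgeR). It stood at 152, 158, 190 and 241 CPM at ZT20 in KO and at 0, 35.0, 42.7 and 56.6 CPM at ZT12. The other 4 were rows 5734, 10633, 14170 and 20224, with fitted peaks between 19.9 h and 0.05 h after ZT0. Over all 60 rows, 19 fitted KO peaks fell within 2 h of ZT20 (31.7%, against 17.5% of all kept rows) and 16 within 2 h of ZT0 (26.7%, against 15.5%). In the fit over all kept rows 6 of 60 were again rhythmic in KO, where 0.625% of rows were.

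In LRE 2 of the 29 tested members were rhythmic, where 7.2% of tested rows were. In the fit over all kept rows it was 1 of 60, where 2.42% were. Row 14170 had an amplitude of 1.52 and a peak at 21.3 h (adjusted p = 0.0290 by edgeR), close to its KO peak at 21.7 h. Row 27515 had an amplitude of 1.22 and a peak at 9.3 h (adjusted p = 0.0412 by edgeR). With the axis score, a score of the main variation within groups, its amplitude was 0.87 and the call was lost (adjusted p = 0.334). Row 14170 lost its LRE rhythm with limma-voom, at an amplitude of 0.99 (adjusted p = 0.231). Row 27515 stood at 36.2, 51.4, 55.5 and 82.5 CPM at ZT8 in LRE and at 0, 6.37, 18.6 and 39.0 CPM at ZT20. In KO it was highest at ZT20, at 50.6, 90.7, 105 and 172 CPM. The LRE count varied between 0 and 5 when single LRE libraries were left out. It was 0 without ZT0 replicate 2, ZT12 replicate 2 or ZT8 replicate 1, 2 or 4. It was 1 without ZT0 replicate 4, ZT12 replicate 1, 3 or 4, ZT8 replicate 3 or ZT20 replicate 2 or 3. It was 4 without ZT4 replicate 1 or ZT20 replicate 1 and 5 without ZT0 replicate 3.

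The rhythm differed between LRE and KO for 9 of the 29 tested members, where 16% of tested rows did. The test was an edgeR F-test that both rhythm terms are equal, at an adjusted p under 0.05. In the fit over all kept rows it was 8 of 60, where 5.37% did. Row 20224 differed by a curve of amplitude 1.57 (adjusted p = 0.00289 by edgeR). Its fitted peak was at 0.05 h in KO and at 6.7 h in LRE, where its own rhythm did not pass (adjusted p = 0.104). Row 27515 differed by a curve of amplitude 1.85 (adjusted p = 0.0124 by edgeR). The main axis of variation within groups, scored per library over the rows that passed the count filter, also differed between these groups. In KO the score was 0.98 ± 0.95 at ZT8 and -0.96 ± 0.04 at ZT20 (SD, n = 4), and in LRE -0.95 ± 0.03 and 0.59 ± 1.15. With this score in the fit, 2 of the 29 tested members were rhythmic in KO, where 0.671% of tested rows were. Row 2145 then had an amplitude of 1.18 and lost its KO call (adjusted p = 0.0551 by edgeR). Between LRE and KO 0 differed by edgeR, where 0.0269% of tested rows did, so that calls fell over the whole table. In the same fit over all kept rows, 7 of 60 had an unadjusted p under 0.05 for this difference (11.7%, against 6.79% of all rows). Between ZT0 and ZT12 the score was -0.15 ± 0.72 and 0.22 ± 0.99 in KO, and 0.23 ± 0.98 and -0.99 ± 0.16 in LRE (SD, n = 4). With the score in the fit, ZT0 minus ZT12 gave 2 of the 29 tested members in KO, where 0.564% of tested rows passed. In LRE this contrast gave 1, where 0.806% did. The part of the score in these contrasts was not tested further.

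Plate position moved with time in a way that WT and KO shared. Library names place the ZT0 libraries of both in letters A to D and those of ZT12 in letters M to P, at position number 1 in WT and 4 in KO. In LRE, ZT0 had letters I to L at position number 2 and ZT12 letters A to D at number 3. The LRE groups in letters M to P were ZT4 and ZT20, where the median deviation of the 60 rows was -0.01 and -0.10. Within KO, ZT0 and ZT16 shared letters A to D, with median deviations of 0.35 and -0.26, and ZT4 and ZT20 shared letters E to H, with 0.06 and 0.39. Each of these pairs differed in position number, with KO ZT0 and ZT4 at 4 and KO ZT16 and ZT20 at 5. In WT the same times shared those letters. ZT12 alone had letters M to P in WT and in KO, so that for ZT0 against ZT12 within either genotype time and letter cannot be told apart. For ZT0 against ZT12 in LRE, time cannot be told apart from letter and position number.

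WT could be tested only at the times that did not choose the rows. The mean of ZT4 and ZT20, the times next to ZT0, was compared with that of ZT8 and ZT16, the times next to ZT12. Here 7 of the 29 tested members were higher, where 6.12% of tested rows were (edgeR, adjusted p under 0.05). Another 3 were lower, where 12.5% were. Scaling by the upper quartile gave a split of 10 higher and 0 lower, and the median of all tested rows moved from -0.11 to 0.23. Row 22365 stood at 47.4, 69.8, 86.7 and 104.5 CPM at ZT4, at 35.1, 47.1, 175 and 205 CPM at ZT20 and at 54.3, 62.5, 67.0 and 67.7 CPM at ZT8. At ZT16 it stood at 1.97, 9.13, 21.2 and 40.6 CPM, below every library of ZT8. Its log2 fold change was 1.35 ± 0.39 (SE, adjusted p = 0.0118 by edgeR). Row 5412 was higher by 0.83 ± 0.26 (SE, adjusted p = 0.0199 by edgeR), with 69.7, 118, 123 and 161 CPM at ZT4 and 25.5, 45.6, 50.9 and 122 CPM at ZT16.

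The rows called lower were 6073, 7684 and 25269, each with its highest WT mean at ZT16. Row 6073 stood at 132, 292, 306 and 318 CPM there and at no more than 104.5 CPM in any other WT library, for a log2 difference of -1.32 ± 0.38 (SE, edgeR adjusted p = 0.0102). Row 25269 stood at 142, 163, 185 and 229 CPM at ZT16 in WT and at 29.3 to 88.8 CPM at ZT4, ZT8 and ZT20, with -0.97 ± 0.33 (SE, adjusted p = 0.0306 by edgeR). All 4 WT libraries of ZT16 are among those that stood apart. Without the 7 libraries no WT library of ZT16 is left, so ZT4 and ZT20 were compared with ZT8 alone. In that other contrast 0 of the 60 rows passed by edgeR, where 0.0298% of tested rows did, so that calls were few over the whole table. The 28 members tested there had passed the count filter, so their unadjusted p-values are not read as a group. Against ZT8 alone, without the 7 libraries, row 22365 had a log2 fold change of 0.69 and row 25269 had 0.10.

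Single libraries also moved this count of 10 rows. It was 4 without WT ZT16 replicate 2 or WT ZT20 replicate 2, and 6 without WT ZT4 replicate 4, ZT8 replicate 2, ZT8 replicate 4, ZT20 replicate 1 or ZT20 replicate 3. Row 5412 lost its call without WT ZT4 replicate 3 (adjusted p = 0.0519 by edgeR). Row 25269 lost its call without WT ZT4 replicate 1, any one of ZT8 replicates 1, 3 and 4, ZT16 replicates 2, 3 and 4, or ZT20 replicates 2 and 3, with log2 fold changes between -0.94 and -0.83. In LRE and in KO, 0 of the 60 rows passed the same contrast by edgeR, where 0.644% and 0% of tested rows did. Of the 60 rows in the fit over all kept rows, 8 in LRE had an unadjusted p under 0.05 (13.3%, against 8.81% of all rows) and 15 in KO (25%, against 11.2%). Under the count filter limma-voom and DESeq2 called 0 in both. The smallest p in LRE was that of row 10562, at 1.06 ± 0.36 (SE, adjusted p = 0.139 by edgeR), and in KO that of row 2145, at 1.58 ± 0.48 (SE, adjusted p = 0.124). The 60 rows had a median log2 fold change of 0.19 for WT, 0.03 for LRE and 0.30 for KO, against -0.02, 0.08 and -0.02 over all kept rows.

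Levels were compared with WT over ZT4, ZT8, ZT16 and ZT20 only. Both comparisons share the 16 WT libraries of these times. In LRE 9 of the 29 tested members were higher than in WT, where 6.34% of tested rows were (edgeR, adjusted p under 0.05). Another 3 were lower, where 10.1% were. In KO 6 were higher, where 7.09% were, and 2 lower, where 10.9% were. With upper-quartile scaling the KO split was 9 higher and 1 lower. Row 29777 had a median of 19.7 CPM in the WT libraries (range 0 to 105, n = 16), 109.9 CPM in LRE (35.8 to 172) and 108 CPM in KO (24.1 to 378). Its log2 fold change was 1.76 ± 0.28 in LRE (SE, adjusted p = 8.07e-06 by edgeR) and 1.63 ± 0.29 in KO (adjusted p = 8.36e-05). Row 10562 had a median of 33.9 CPM in WT (0 to 73.1, n = 16), 95.9 CPM in LRE (53.6 to 363) and 99.7 CPM in KO (0 to 236). It was higher by 1.77 ± 0.29 in LRE (SE, adjusted p = 2.28e-05 by edgeR) and by 1.62 ± 0.30 in KO (adjusted p = 0.000149). Both rows overlapped with WT in part.

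The lower rows again rested on ZT16. Row 7684 stood at 162, 246, 333 and 352 CPM at ZT16 in WT, at 41.9 to 145 CPM in the WT libraries of ZT4, ZT8 and ZT20, and at 0 to 91.6 CPM in LRE and 0 to 116 CPM in KO. Its log2 fold change was -1.39 ± 0.31 in LRE (SE, adjusted p = 0.00114 by edgeR) and -1.20 ± 0.31 in KO (adjusted p = 0.0043). Row 6073 was lower by -1.21 ± 0.29 in LRE (SE, adjusted p = 0.00265 by edgeR) and by -0.86 ± 0.29 in KO (adjusted p = 0.0314). Without the 7 libraries no WT library of ZT16 is left, and levels were compared over ZT4, ZT8 and ZT20 only. Of the 28 members tested there, 4 were higher and 0 lower in LRE, where 5.15% of tested rows were higher. In KO 5 were higher and 0 lower, where 6.28% were higher. The KO call of row 6073 was lost without any 1 of 20 libraries, with log2 fold changes between -0.82 and -0.69 and adjusted p-values of up to 0.0996 by edgeR. In WT these were ZT0 replicate 2, ZT4 replicates 3 and 4, ZT8 replicate 1, ZT16 replicates 2, 3 and 4 and ZT20 replicate 4. In LRE they were ZT0 replicate 3, ZT12 replicates 2 and 3, ZT8 replicates 2, 3 and 4 and ZT20 replicate 3. In KO they were ZT12 replicates 1 and 4, ZT16 replicates 2 and 3 and ZT20 replicate 3.

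Between LRE and KO, averaged over the 6 times, 0 of the 60 rows passed by edgeR, where 0% of tested rows did. Over all kept rows, 4 of 60 had an unadjusted p under 0.05 in that fit (6.67%, against 7.62% of all rows). Under the count filter limma-voom and DESeq2 called 0. The smallest p was that of row 20224, higher in LRE by 0.68 ± 0.22 (SE, adjusted p = 0.412 by edgeR). Its median over 24 libraries was 2897 CPM in LRE and 2288 CPM in KO.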

How the data were processed

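The values are raw counts, whole numbers, in a single table that the authors deposited (32377 rows, 180 columns). The plate position in the column names tied 72 columns to samples, and the other 108 were left out. STAR 2.5.4b and the builds mm10 and GRCm38 are named in the submitters' processing notes. How reads were counted, on which annotation and with what use of strand is not given in the sources used here, so rows that share reads could not be marked, nor could rows that hold no gene be left out of library totals.

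Counts were tested with edgeR 4.0.16 in R 4.3.3 (quasi-likelihood F-test, TMM scaling, filterByExpr with a minimum count of 10, means of 18 groups over all 72 libraries, Benjamini-Hochberg adjustment over all tested rows). Rhythm was tested with a cosine and a sine term of 24 h for each genotype. The SE is the log2 fold change over the square root of F. Alternatives were RLE and upper-quartile scaling, 2 other row filters, limma-voom (limma 3.58.1), DESeq2 1.42.0 for the contrasts, a replicate block over all groups or, added after seeing the data, within KO ZT0 and KO ZT12, counts thinned to 30000, a within-group axis score as covariate, and fits without 7 libraries, without ZT16 or without each library in turn. The last kept the tested rows and the dispersion trend of all 72 libraries.

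For each comparison, the rows named were the 2 called members with the smallest p in each direction or, with none called, the 1 with the smallest p, plus the 2 at the top of the choice and the 2 on either side of its limit. The rows, lists and tests were chosen with earlier results of these data known. The labels do not say that a replicate number marks a shared animal or day. Same-numbered libraries all had correlated deviations (over 0.1) in 5 of 153 pairs of groups, KO ZT0 with KO ZT12 among them. In other pairs all 4 correlations were negative, such as LRE ZT20 with KO ZT0 (-0.473 to -0.318) and with KO ZT8 (-0.696 to -0.284). As a caution, the block was still fitted for KO ZT0 and KO ZT12. Whether the numbers pair the libraries was not tested. Within groups, no pair of libraries agreed within sampling noise: over 108 pairs the chi-square per degree of freedom ran from 1.29 to 39.5.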

Additional observations from a re-analysis of the deposited data

Results flagged for a closer look

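Under the count filter, which 29 of the 60 rows passed, the 24 h rhythm of 9 rows differed between LRE and KO. This was a test of the difference itself (edgeR F-test, adjusted p under 0.05), and 16% of all tested rows passed it. In the fit over all kept rows it was 8 of 60, where 5.37% did. With the axis score in the fit under the count filter it was 0, where 0.0269% of tested rows did. The sets of 4 library values checked were the shares of counts in every group and the row values printed above. Of these 81 sets, 4 had 1 library well away from the rest, and chance alone gives about 1 in 20, or 4.05. The share of counts on the 59 rows without row 20224 was 0.622% in KO ZT4 replicate 1, against 0.358% to 0.386% in the other KO libraries of ZT4. Row 14170 stood at 28.3 CPM in WT ZT12 replicate 4 and at 0 in the other 3, which rests on 2 counts. Row 6073 stood at 132 CPM in WT ZT16 replicate 1, against 292 to 318 CPM in the other 3. Row 25269 stood at 35.7 CPM in WT ZT8 replicate 2, against 73.7 to 76.2 CPM in the other 3.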

How the results depend on the processing

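Counts below are rows of the 60 past an adjusted p of 0.05 by edgeR unless another tool is named, with 29 of them tested under the count filter. ZT0 minus ZT12 in LRE gave 1, and 0 in the fit over all kept rows, with limma-voom or on thinned counts, and 3 with no count filter. ZT0 minus ZT12 in KO gave 2, and 3 with no filter. LRE minus KO of that contrast gave 0, and 1 with RLE scaling, with no filter or without the 7 libraries, and 2 with DESeq2. The contrast of ZT4 and ZT20 with ZT8 and ZT16 gave 10 in WT, 1 on thinned counts and 5 with the axis score. Without the 7 libraries or without ZT16 it gave 0, against ZT8 alone. In LRE it gave 0, and 1 without ZT16, and in KO 0, and 4 with no filter. Rhythm in LRE gave 2, and 1 in the fit over all kept rows, 0 on thinned counts and 5 without ZT16. Rhythm in KO gave 6, and 11 with no filter, 3 on thinned counts, 12 without ZT16 and 2 with the axis score. The LRE against KO rhythm gave 9, and 4 on thinned counts and 0 with the axis score. The level of LRE against WT gave 12, and 4 on thinned counts, 4 without the 7 libraries and 7 without ZT16. That of KO gave 8, and 2, 5 and 4 in the same fits and 14 with the axis score.

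The fits without the 7 libraries and with the axis score were repeated over all kept rows, alternatives added after seeing the data. Without the 7 libraries they gave 1 for LRE minus KO of ZT0 minus ZT12, 0 for the WT contrast of ZT4 and ZT20, and 4 and 5 for the levels of LRE and KO. With the axis score they gave 6 for that WT contrast, 1 in LRE, 3 for rhythm in KO and 0 for LRE against KO. There, without the 7 libraries, row 6073 turned from -1.32 to 0.0305 in the WT contrast and from -0.86 to 0.11 in KO against WT, and row 25269 from -0.97 to 0.0360 (0.10 with the usual count filter). These fits hold no WT library of ZT16, so ZT16 dropped out of both contrasts. In WT, ZT4 and ZT20 were then compared with ZT8 alone. The values are therefore of other contrasts than those over the 72 libraries.

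Leaving out each library in turn gave 0 to 1 for ZT0 minus ZT12 in LRE, 0 to 2 in KO and 0 to 3 for their difference. The contrast of ZT4 and ZT20 gave 4 to 12 in WT and 0 in LRE and in KO. Rhythm gave 0 to 5 in LRE, 4 to 8 in KO and 6 to 11 for LRE against KO. Levels gave 10 to 13 for LRE, 7 to 10 for KO and 0 for LRE against KO. Of the 60 rows, 29 to 47 were chosen again, against 26 with a pseudocount of 50, 37 by the mean of 4 libraries, 41 with a pseudocount of 1 and 54 with TMM-scaled CPM.

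With the number as a replicate block over all groups, ZT0 minus ZT12 gave 0 in LRE (adjusted p = 0.0524 for row 14170 by edgeR) and 0 in KO, and the other 10 counts stayed within 1.5 times. The block within KO ZT0 and KO ZT12, added after seeing the data, gave 0 in KO and 0 for LRE minus KO. Over the 153 pairs of groups the mean same-number correlation was 0.0015, and LRE ZT0 with LRE ZT12 did not have all 4 over 0.1. At the median total, a level of 11.6 CPM is 1 count, so a value of 0 in 1 library is a level not detectable at this depth.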
